A study of Homo sapiens with 6 samples.

Results

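The genes described here encode 9 enzymes or enzyme subunits of the mitochondrial tricarboxylic acid cycle, CS, IDH2, IDH3A, IDH3B, OGDH, DLST, SUCLG1, FH and MDH2. They were picked by gene symbol from the 26364 genes of the authors' deposited table, and all 9 were found and tested there. Succinate dehydrogenase was left out of the 9 by choice, and its subunits stand below with IDH3G, DLD, SUCLA2 and SUCLG2 as further subunits of the cycle. The 6 RNA-seq libraries came from 3 independent experiments on REH, an established human cell line grown from a B-cell precursor leukaemia. A short hairpin RNA against STAT3 (shSTAT3), a transcription factor downstream of cytokine receptors, was delivered by lentivirus for 3 libraries, and a scramble hairpin for the other 3. Both groups spent 3 days under puromycin and were cleared of dead cells before extraction. The study is thus of 1 cell line under a knockdown, and the sources used here do not give how many hairpin sequences were used against STAT3.

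The cycle takes acetyl groups from pyruvate, fatty acids and amino acids, joins them to oxaloacetate to make citrate, and oxidises them stepwise back to oxaloacetate. The steps hand electrons to NAD+ or ubiquinone for the respiratory chain. Dividing leukaemia cells also draw on the cycle for building blocks, since citrate leaves the mitochondrion for fatty acid and sterol synthesis, and 2-oxoglutarate and oxaloacetate feed amino acid synthesis.

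The genes of the cycle did not move as a block when STAT3 was reduced. IDH2, the NADP+-linked isocitrate dehydrogenase, fell to 53.7% of its scramble level, and FH, the fumarase, fell to 78.9%. CS, IDH3B, OGDH and MDH2 rose, by 1.16-fold to 1.30-fold. IDH3A, DLST and SUCLG1 did not pass the test. A gene is called here when its DESeq2 adjusted p in the authors' deposited table is under 0.05, and 6 of the 9 genes were called, 4 higher and 2 lower. Over all 12061 tested genes 44.5% were called, 21.3% higher and 23.2% lower, so with 9 genes a count of 6 says little about the cycle as a whole. The median log2 fold change of the 9 genes was 0.11, against 0.0027 for all tested genes.

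**Figure D1:**
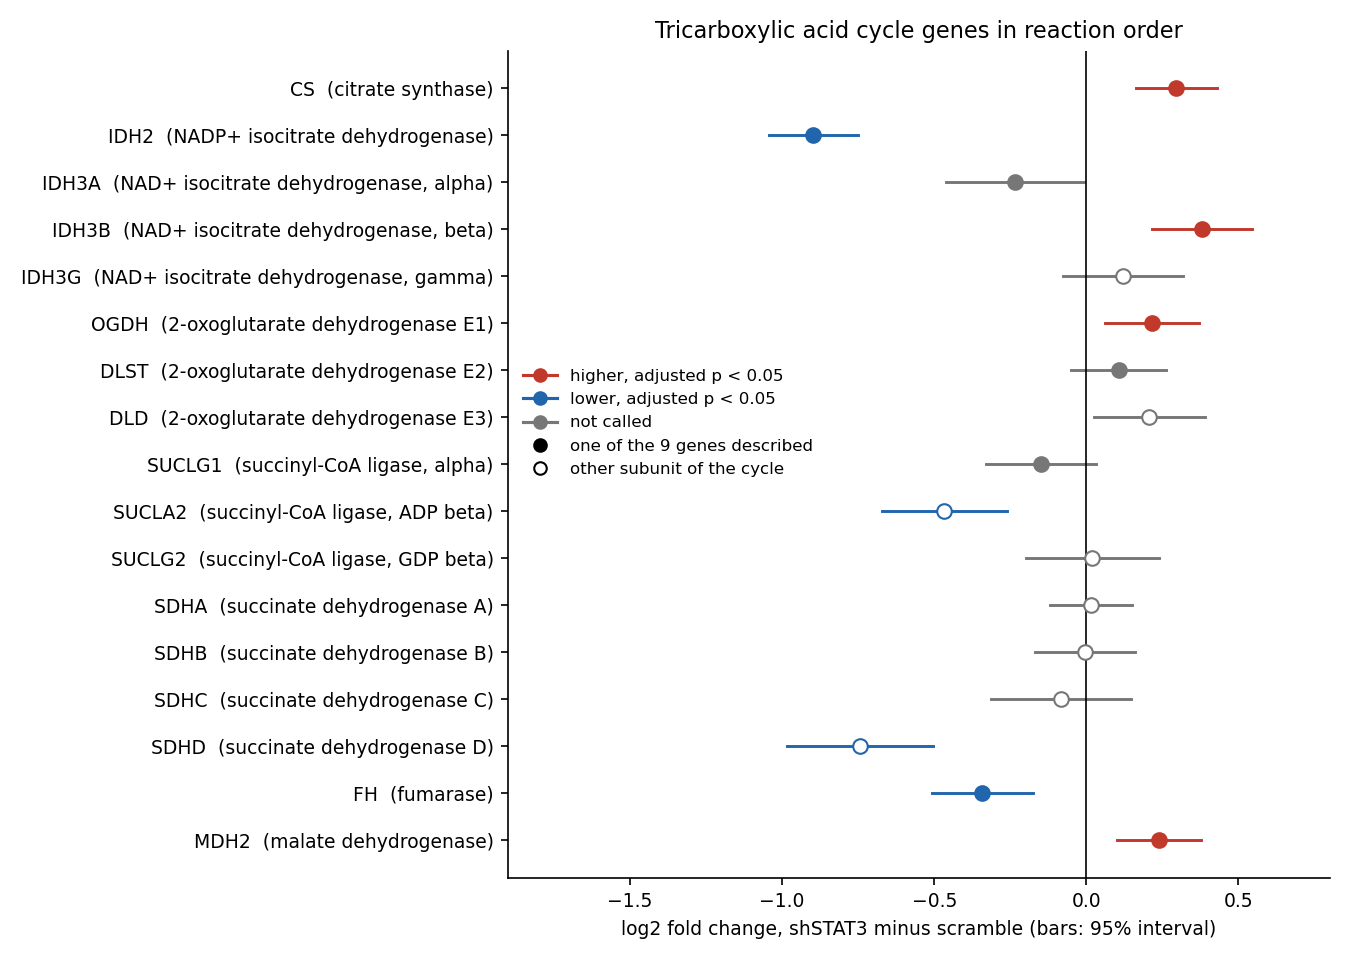
Log2 fold change (shSTAT3 minus scramble, x axis) of 17 genes of the cycle in reaction order, with 95% intervals as bars; filled points are the 9 genes described and open points other subunits. IDH2 at −0.90 and SDHD at −0.74 lie farthest to the left, while the called genes CS, IDH3B, OGDH and MDH2 lie to the right of 0.

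The table analysed here gives no value per library. Each gene has 1 normalized count averaged over the 6 libraries, 1 fold change and its p-values, so spread between replicates is seen only through the standard error that fold change and p imply. The fold changes are shrunken toward 0 by DESeq2, as genes with 1 read in all libraries have values within 0.0593 of 0, and the intervals given are those of shrunken values. The mean total was 11485068 normalized counts per library, with size factors between 0.935 and 1.13 as read from genes with 1 read. STAT3 itself was at 29.8% of scramble (log2 fold change −1.75 from the authors' deposited table, with adjusted p = 7.78e-74). The table does not say which group is the numerator, so negative fold changes were read as lower in shSTAT3, the group in which STAT3 is targeted, and its fall is no separate check of the labels. Of 13 B-cell precursor markers 12 were tested, with means up to 20516 for RAG1, and VPREB1 was at 0. The 4 T-cell markers matched of 5, and all 4 erythroid markers, lay at means of 1.41 or less. Of 7 myeloid markers MPO was at a mean of 2330 and the other 6 at 0.176 to 410. ITGAM was called higher, and CSF1R and CST3 were called lower. Of 6 fibroblast and epithelial markers PDGFRB was at 806 and COL1A1 at 51.3, both called lower, and 3 were at 0. The part of such cells in the results below was not tested. In RNA from whole cultures, a change in the make-up of the culture and a change in RNA per cell cannot be told apart.

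All 9 genes had means above the median of tested genes. Their means ran from 436 for IDH3A to 4189 for CS in the authors' deposited table, against a median of 411 for tested genes. Levels of different genes can be compared only per length of transcript, and on that scale CS was highest at 1408 normalized counts per kilobase. MDH2 followed at 1211, IDH2 at 888, IDH3B at 782 and FH at 679 normalized counts per kilobase. SUCLG1 stood at 596, DLST at 529, OGDH at 408 and IDH3A at 106 normalized counts per kilobase, so the levels spanned 13.3 times. Per kilobase, 43.4% of tested genes of known length lay below IDH3A, and 81.2% or more below each of the others. With no value per library, which neighbours in this order differ beyond their spread could not be worked out. The standard errors of the 9 fold changes lay between 0.068 and 0.12 on the log2 scale. Each was 0.912 to 0.970 times the median of tested genes with a like mean, so none of the 9 standard errors was unusually large. The spread between libraries itself could not be seen.

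**Figure D2:**
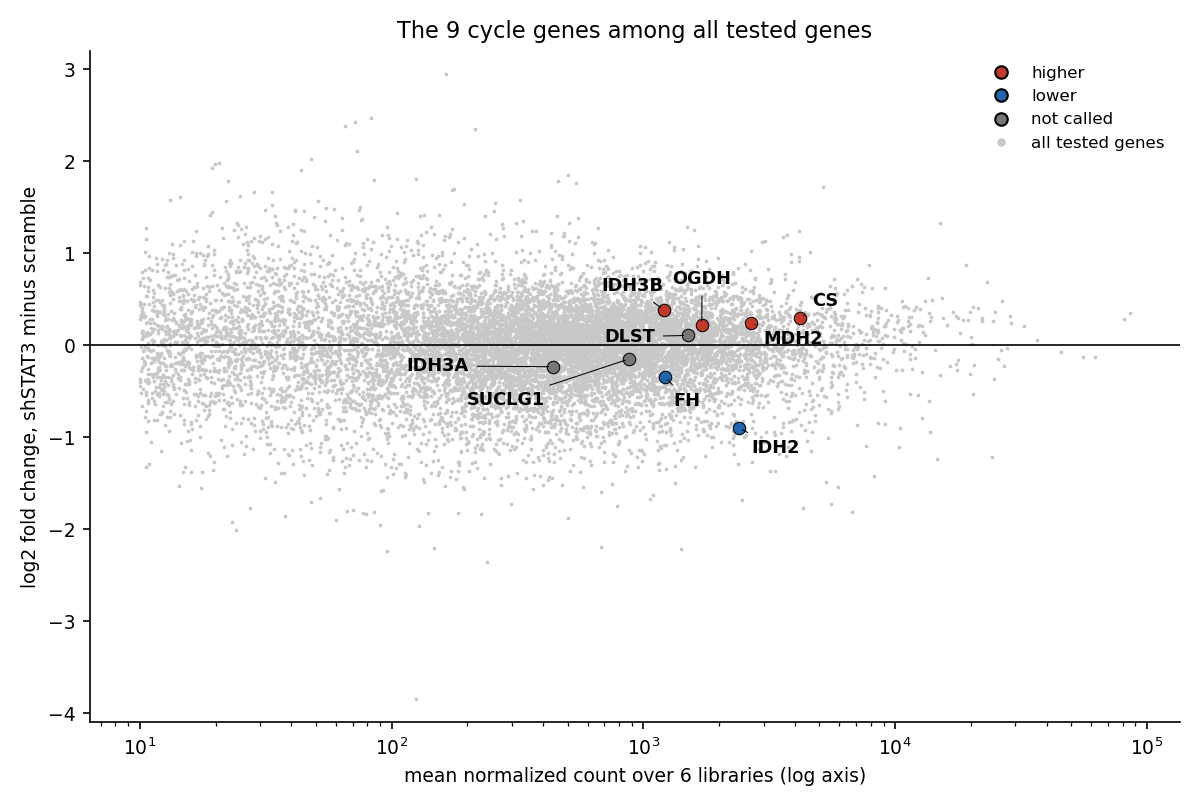
Log2 fold change (y axis) against the mean normalized count over 6 libraries (x axis, log scale) for the 12061 tested genes in grey and the 9 cycle genes in colour. IDH2 lies below most genes of like mean, and the other 8 lie within the bulk.

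Short stretches of promoter are shown for the members that hold a motif of 3 factors relevant here, namely STAT proteins, whose member STAT3 was reduced, and GABP and NRF1, which drive many nuclear genes of mitochondria. RefSeq windows from 250 bases before to 50 after the gene start (GRCh38.p14) were matched for 8 of the 9 genes, CS, IDH2, IDH3A, IDH3B, DLST, SUCLG1, FH and MDH2. Both strands were searched. The STAT motif was TTCNNNGAA. The motif of the ETS family, to which the DNA-binding part of GABP belongs, was CCGGAAG. The core of the site bound by NRF1 was TGCGCA. No match of one shared bases with a match of another. Each line gives 30 bases on the strand of the gene, with the match in capitals. Distances run from the start to the middle of the match, so the NRF1 core of IDH3A reaches the start base itself.
SUCLG1, STAT motif, 177 bases before the start, chr2:84459443-84459472, minus strand: caaacccacatTTCTAGGAAggagccgagt
IDH3B, ETS motif, 37 bases before the start, chr20:2664239-2664268, minus strand: actcagtacaggCCGGAAGtcggggtacgg
DLST, ETS motif on the opposite strand, 19 bases before the start, chr14:74881882-74881911, plus strand: cggcccgccccaCTTCCGGttgttgtccgg
MDH2, ETS motif, 110 bases before the start, chr7:76047981-76048010, plus strand: cctttccgactcCCGGAAGtggccgtgatc
MDH2, second ETS motif, 66 bases before the start, chr7:76048025-76048054, plus strand: aggcgagcgcgaCCGGAAGtccggtcactc
IDH3A, NRF1 core, 2 bases before the start, chr15:78149345-78149374, plus strand: ggggtgggcgctTGCGCActgccgctgcgg
IDH3B, NRF1 core, 140 bases before the start, chr20:2664342-2664371, minus strand: agacaaagtgctTGCGCAtcccatgacctc

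The STAT motif was thus present in the window of 1 of the 8 genes, SUCLG1, which was not called, and 7.66% of all 35116 RefSeq windows hold it. The ETS motif was present in 3 of 8 windows, those of IDH3B, DLST and MDH2, against 10.3% of all windows. IDH3B and MDH2 were called higher and DLST was not called. The NRF1 core was present in 2 of 8, IDH3A and IDH3B, against 8.24% of all windows. Of 2 further motifs, the E-box CACGTG was in none of the 8 windows (7.26% of all windows) and the GC box GGGCGG in 4, CS, IDH3A, DLST and FH (45.0% of all windows). The IDH2 window held none of the 5 motifs. It lies at a RefSeq start 1883 bases inside the gene as GENCODE 29 draws it, so another start of IDH2 was not scanned. The RefSeq starts of SUCLG1 and IDH3A likewise lie 765 and 17864 bases inside the GENCODE genes, which hold starts further upstream. These are matches of letters and not measured binding. In the authors' deposited table GABPA and NRF1, named for these motifs after their values were seen, were both lower, at log2 fold changes of −0.34 and −0.30 (adjusted p = 0.00858 and 0.0379).

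At the entry of the cycle, citrate synthase joins acetyl-CoA to oxaloacetate. CS (ENSG00000062485.18, chromosome 12 from 56271699 to 56300392, minus strand, GRCh38 with GENCODE release 29) was at a mean of 4189, with a log2 fold change of 0.30 (the authors' deposited table, with adjusted p = 8.18e-05). With a standard error of 0.068 and a 95% interval of 0.16 to 0.43, this is 123% of scramble. Of its principal transcript 7.39% of bases also lie in exons of other annotated genes.

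Isocitrate is oxidised in mitochondria by enzymes of different kinds. IDH2 uses NADP+ and yields NADPH, which serves glutathione and thioredoxin, and it can also run in reverse. IDH2 (ENSG00000182054.9, chromosome 15 from 90083045 to 90102504, minus strand, 11 exons in its principal transcript) had a mean of 2394, with a log2 fold change of −0.90 (the authors' deposited table, with adjusted p = 1.12e-31). Its standard error was 0.074 and its 95% interval −1.04 to −0.75, or 48.6% to 59.4% of scramble. By p-value IDH2 ranked 98 among the 12061 tested genes, and 4.12% of tested genes had a lower fold change. Its interval lay below those of the other 8 genes, of which the lowest bound was −0.51 for FH. The cytosolic NADP+-linked enzyme, encoded by IDH1, fell too, by 0.54 on the log2 scale (the authors' deposited table, with adjusted p = 6.35e-10).

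The NAD+-linked isocitrate dehydrogenase, which drives the cycle forward, is built of a catalytic alpha subunit (IDH3A) with beta (IDH3B) and gamma (IDH3G) subunits. Of these 3 genes 1 was called, beside 44.5% of all tested genes. IDH3B (ENSG00000101365.20, chromosome 20 from 2658395 to 2664219, minus strand) had a mean of 1208 and rose by 0.38 on the log2 scale (the authors' deposited table, with adjusted p = 2.96e-05), the largest rise among the 9 genes. Its standard error was 0.083 and its 95% interval 0.22 to 0.54. IDH3A (ENSG00000166411.13, chromosome 15 from 78131498 to 78171949, plus strand) had a mean of 436, and its log2 value of −0.23 from the authors' deposited table did not pass (adjusted p = 0.0861). Its 95% interval of −0.46 to −0.01 did not overlap that of IDH3B, and the values differed by 0.62, a difference that was not tested. IDH3G did not pass either, at 0.12 (the authors' deposited table, with adjusted p = 0.335), and its interval overlapped those of both partners. The count of IDH3A is less certain than the others, because 63.2% of the bases of its principal transcript also lie in exons of ACSBG1 on the opposite strand and the use of strand in counting is not stated in the sources used here. ACSBG1 itself was at a mean of 1.14 in the authors' deposited table. How reads in the shared stretch were assigned bears on the low level of IDH3A per kilobase and was not tested.

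The 2-oxoglutarate dehydrogenase complex makes succinyl-CoA from 2-oxoglutarate with a decarboxylase (OGDH), a lipoate-bearing core (DLST) and a flavin-bearing subunit (DLD) that is shared with pyruvate dehydrogenase. OGDH (ENSG00000105953.14, chromosome 7 from 44606572 to 44709066, plus strand) had a mean of 1705, with a log2 fold change of 0.21 (the authors' deposited table, with adjusted p = 0.0167). Its 95% interval was 0.06 to 0.37, and it was the call of the 9 nearest to the threshold. DLST (ENSG00000119689.14, chromosome 14 from 74881891 to 74903745, plus strand) had a mean of 1500, with a log2 fold change of 0.11 (the authors' deposited table, with adjusted p = 0.282), with an interval of −0.05 to 0.26. DLD was at 0.21 and just missed the threshold (the authors' deposited table, with adjusted p = 0.0552). All 3 subunits had a positive fold change with overlapping intervals, and 1 of the 3 was called, beside 44.5% of all tested genes. OGDHL, a relative of OGDH, had a mean of 0 in the authors' deposited table. A processed pseudogene of DLST, DLSTP1, and one of FH, FHP1, are annotated, and how reads shared with them were counted is not given in the sources used here.

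Succinyl-CoA ligase makes succinate and a nucleoside triphosphate, and its shared alpha subunit (SUCLG1) pairs with a beta subunit for ADP (SUCLA2) or for GDP (SUCLG2). SUCLG1 (ENSG00000163541.11, chromosome 2 from 84423523 to 84460045, minus strand) had a mean of 880, with a log2 fold change of −0.15 (the authors' deposited table, with adjusted p = 0.183), with an interval of −0.33 to 0.03. SUCLA2 fell by 0.47 on the log2 scale (the authors' deposited table, with adjusted p = 5.08e-05), to 72.4% of scramble. SUCLG2 was at 0.02 (the authors' deposited table, with adjusted p = 0.902). The intervals of SUCLA2 and SUCLG2 did not overlap, and their difference of −0.49 was not tested. Succinate dehydrogenase is also complex II of the respiratory chain. It had a call in 1 of its 4 subunit genes, beside 44.5% of all tested genes. SDHD, a membrane anchor, was at −0.74 (the authors' deposited table, with adjusted p = 1.34e-08). SDHA, SDHB and SDHC lay at 0.02, −0.0038 and −0.08 in the authors' deposited table, with adjusted p of 0.593 or more.

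Fumarase hydrates fumarate to malate, and FH encodes both its mitochondrial and its cytosolic form. FH (ENSG00000091483.6, chromosome 1 from 241497603 to 241519761, minus strand) had a mean of 1220, with a log2 fold change of −0.34 (the authors' deposited table, with adjusted p = 0.000237). Its standard error was 0.084 and its 95% interval −0.51 to −0.18. Malate dehydrogenase closes the cycle by making oxaloacetate. MDH2 (ENSG00000146701.11, chromosome 7 from 76048051 to 76067508, plus strand) had a mean of 2674, with a log2 fold change of 0.24 (the authors' deposited table, with adjusted p = 0.00256), with an interval of 0.10 to 0.38. FH and MDH2, which act in turn, thus changed in opposite directions and their intervals did not overlap.

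Read across the 17 cycle genes described here, with OGDHL left out, 4 rose, 4 fell and 9 were not called, beside 21.3% higher and 23.2% lower of all tested genes. Of the 6 calls among the 9 genes, 5 were for changes under 1.5-fold, as were 61.1% of all calls in the table, and IDH2 was the exception. With the Holm adjustment in place of Benjamini-Hochberg, only the fall of IDH2 remained called among the 9.

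Several cycle enzymes, and GOT2 beside the cycle, have cytosolic counterparts that work on the same metabolites, and 4 such pairs are described here. ACLY, which splits exported citrate into acetyl-CoA for lipid synthesis, fell to 34.3% of scramble, or −1.54 on the log2 scale (the authors' deposited table, with adjusted p = 7.07e-85). It ranked 7 of all tested genes by p. The 95% intervals of CS and ACLY were far apart, with a difference of 1.84 on the log2 scale. MDH1, the cytosolic malate dehydrogenase, fell by 0.50 (the authors' deposited table, with adjusted p = 2.4e-09), while MDH2 rose, and the fold changes differed by 0.73 with no overlap of intervals. For the NADP+-linked isocitrate dehydrogenases both forms fell, with IDH2 lower than IDH1 by a further 0.35 and intervals that did not overlap. GOT1, added after its value was seen to complete a pair, was not called, at −0.08 (the authors' deposited table, with adjusted p = 0.556). Its interval overlapped that of GOT2, the mitochondrial aspartate aminotransferase, which fell by 0.23 (the authors' deposited table, with adjusted p = 0.00866). None of these differences between genes was tested.

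**Figure D3:**
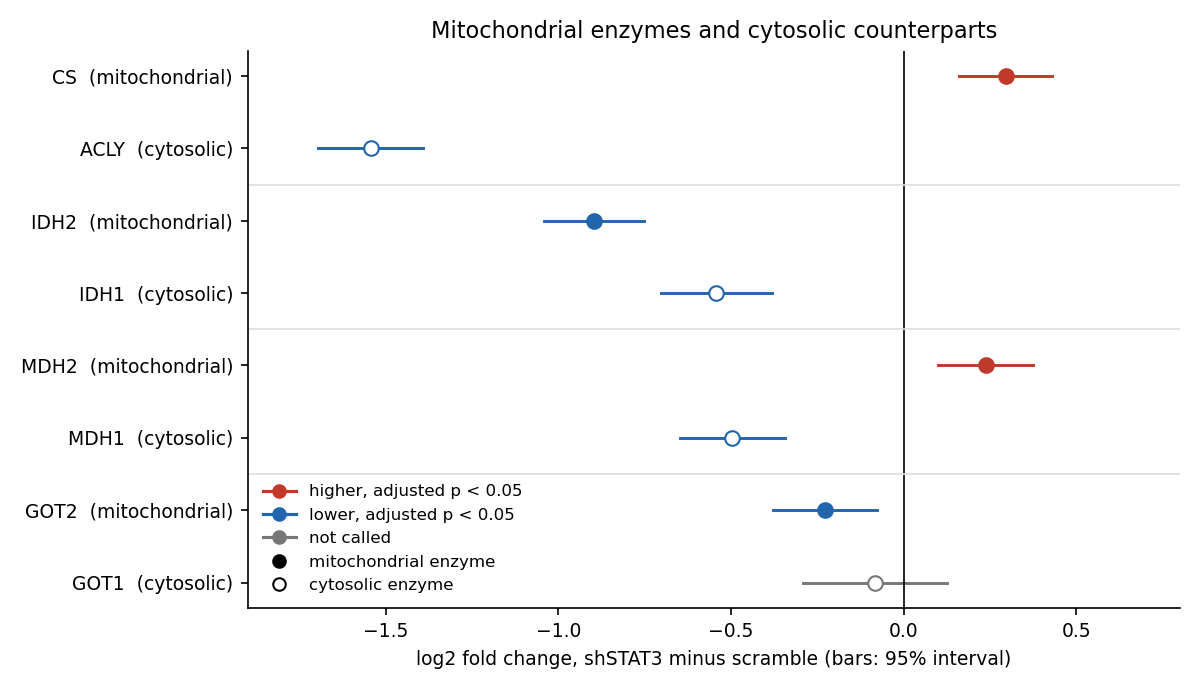
Log2 fold change (x axis) with 95% intervals for 4 mitochondrial enzymes (filled) and their cytosolic counterparts (open), grouped by pair. Intervals are apart for CS and ACLY, IDH2 and IDH1, and MDH2 and MDH1, and overlap for GOT2 and GOT1.

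The wider list of carriers and cytosolic counterparts also holds mitochondrial enzymes such as PCK2 and ME2. In this list 7 of 13 tested genes fell and 2 rose, beside 23.2% lower and 21.3% higher of all tested genes. The median was −0.29 on the log2 scale, against 0.0027 for all tested genes. PCK2, the mitochondrial enzyme that makes phosphoenolpyruvate from oxaloacetate, was at −1.06 (the authors' deposited table, with adjusted p = 9.88e-17), or 48.0% of scramble. The other called genes of the list are named after their values were seen. SLC25A1, the citrate carrier of the inner membrane, and SLC25A10, the dicarboxylate carrier, fell by 0.37 and 0.59 (the authors' deposited table, with adjusted p = 0.000136 and 6.26e-05). SLC25A12, an aspartate/glutamate carrier, and SLC25A22, a glutamate carrier, rose by 0.40 and 0.47 (the authors' deposited table, with adjusted p = 0.000597 and 0.000327). ME2, the mitochondrial NAD+-linked malic enzyme, fell by 0.22 (the authors' deposited table, with adjusted p = 0.0198).

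Of 13 tested genes that bring pyruvate into the cycle, 3 were higher and 2 lower. Of all tested genes 21.3% were higher and 23.2% lower. The median of the 13 genes was 0.0072 on the log2 scale. PDPR, a regulatory subunit of pyruvate dehydrogenase phosphatase, rose by 0.75 on the log2 scale (the authors' deposited table, with adjusted p = 3.57e-16), though its count is uncertain because near copies of PDPR lie elsewhere in the genome. PC, pyruvate carboxylase, which refills oxaloacetate, rose by 0.57 (the authors' deposited table, with adjusted p = 0.00525). MPC2, a subunit of the mitochondrial pyruvate carrier, fell by 0.36 (the authors' deposited table, with adjusted p = 0.00237). PDK1, a kinase that switches pyruvate dehydrogenase off and is induced in hypoxia, fell by 0.82 (the authors' deposited table, with adjusted p = 0.00626), with a standard error of 0.26 that was 2.29 times the median for genes of like mean. The catalytic and core genes of pyruvate dehydrogenase were among the 8 genes not called.

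**Figure D4:**
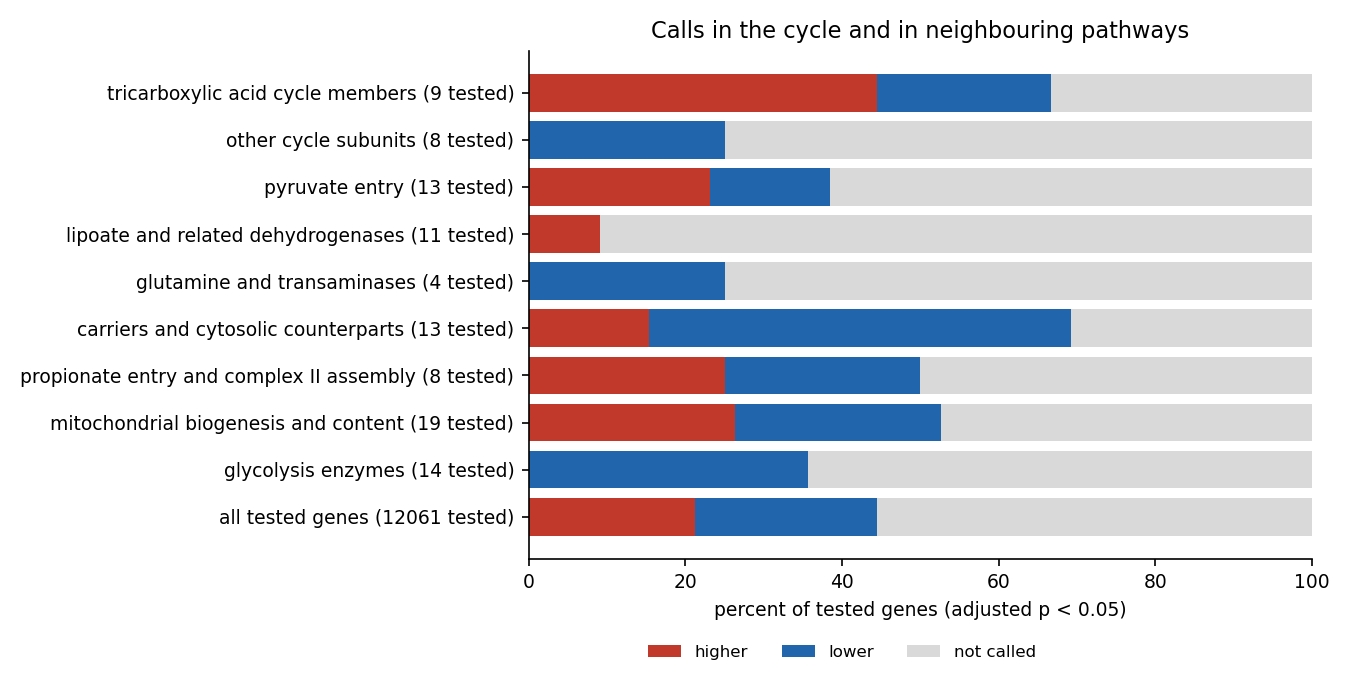
Percent of tested genes called higher, lower or neither (x axis, adjusted p under 0.05) in the 9 cycle genes, in 8 lists of related genes and in all 12061 tested genes. The 9 cycle genes hold 4 higher and 2 lower, carriers and cytosolic counterparts 2 higher and 7 lower, and glycolysis enzymes none higher and 5 lower. The list of carriers and cytosolic counterparts also holds the mitochondrial enzymes PCK2 and ME2.

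Glutamine enters the cycle as 2-oxoglutarate by way of glutamate. In the list of glutamine and transaminase genes 4 of 7 were tested, and the fall of GOT2 given above was the one call. Of 11 genes for lipoate and the related 2-oxoacid dehydrogenases DBT, the core of the branched-chain complex, was the one call, at 0.42 (the authors' deposited table, with adjusted p = 0.000474). Of 8 genes of propionate entry and complex II assembly 2 rose and 2 fell. Over all tested genes 44.5% were called, 21.3% higher and 23.2% lower, which is the share beside each list of this paragraph. SDHAF2 and SDHAF3, assembly factors of succinate dehydrogenase, were at 0.43 and −0.52 (the authors' deposited table, with adjusted p = 0.000888 and 0.0168). PCCA, of propionyl-CoA carboxylase, and MUT, the methylmalonyl-CoA mutase that follows it, were at 0.37 and −0.43 (the authors' deposited table, with adjusted p = 0.00265 and 0.00222).

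In glycolysis, which supplies pyruvate, 5 of 14 tested enzyme genes fell and 0 rose, beside 23.2% lower and 21.3% higher of all tested genes, and the median was −0.21. At an unadjusted DESeq2 p under 0.05 the counts were 7 lower and 0 higher, beside 3143 lower and 2940 higher of all 12061 tested genes. ENO2, HK1, ALDOA and LDHA were at −0.50, −0.37, −0.37 and −0.87 (the authors' deposited table, with adjusted p = 0.000502, 0.000955, 0.00269 and 0.00336). Another 3 enzymes, ENO1, TPI1 and ALDOC, named after their values were seen, have a fold change and no p, which DESeq2 withholds where the count of 1 library stands far from the others. Their fold changes were negative, as were those of 64 of the 74 genes of the whole table with a fold change and no p. The part of single libraries in the falls of glycolysis genes was not tested. Standard errors of 5 of the 14 genes were over 1.5 times the median for genes of like mean, up to 3.81 times for LDHA, against 0 of the 9 cycle genes. The difference between the cycle and glycolysis was not tested.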

How the data were processed

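The deposited table, made by the authors, compares shSTAT3 with scramble over 6 libraries. Tools named in the submitters' processing notes are DESeq2, featureCounts, Picard, Bowtie2, Trimmomatic and bcl2fastq 2.19, with build hg38 and no settings. Annotation, strand use and model formula are not stated in those sources. The deposited mean is a normalized signal, read counts divided by size factors and averaged by the authors, per the file headers. Per the file headers, the deposited fold change is a log2 value. The deposited p-value and adjusted p are DESeq2's, per the file headers, and the Benjamini-Hochberg adjustment over the 12061 tested genes gave the deposited values within 2.87e-07. Tested genes have a mean of at least 10.0. Another 5640 genes have a p and no adjusted p, 74 a fold change and no p, and 8589 a mean of 0.

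Standard errors were the absolute fold change over the two-sided normal quantile for its p, and 95% intervals follow from them. Like mean is within 0.5 on the log2 scale. Transcript lengths, GC content and positions are those of the GENCODE 29 principal transcript, known for 94.4% of tested genes. The unit of replication is the library. As the model formula is not stated, whether the p-values include the spread between the 3 experiments or take it out is not known. The plan's fit per library could not be run on this table, so the authors' test was used. The 9 genes, the related lists and the tests were chosen with earlier results of these data known. Named genes are the 9, STAT3, the other cycle subunits and from each list up to 4 called genes, taken by smallest adjusted p. Other genes were named after their values were seen. Some related genes are not reported here, and the counts leave them out. The scripts were tested on simulated data. Computation used scipy 1.17.1, numpy 2.4.6, matplotlib 3.10.9 and pandas 2.3.3 under Python 3.11.15.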

Additional observations from a re-analysis of the deposited data

How the results depend on the processing

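No paired analysis was possible because the deposited table has no values per library. For the same reason the TMM normalization with edgeR, the fits that leave out a library and any count without a doubted library were not run. With the Holm adjustment, 1 of the 9 cycle genes was called, 0 higher and 1 lower, against 6 as deposited, and 2046 of all tested genes against 5369. At an unadjusted DESeq2 p under 0.05, 4 of the 9 were higher and 3 lower, beside 2940 higher and 3143 lower of all 12061 tested genes. The 6 alternatives that give a p all reuse the deposited DESeq2 p-values or the standard errors these imply, and are not independent checks. IDH2 was called in all 6, with adjusted p between 7.22e-32 and 1.09e-29. CS, IDH3B, FH and MDH2 were called in 5 of 6, all but Holm (highest adjusted p 0.149, 0.0503, 0.477 and 1), and their lowest were 7.21e-05, 2.61e-05, 0.00021 and 0.0023. OGDH was called in 3 of 6, and lost under a threshold of 0.01, Holm and Benjamini-Yekutieli (adjusted p from 0.0152 to 1). IDH3A, DLST and SUCLG1 were called in 0 of 6. Less a fit on length, GC content and mean, the fold change of FH was −0.26 in place of −0.34, and the other 8 moved by less than their standard error. No fold change of the 9 changed sign with that fit or with centring on the median. Depth does not limit these genes much, as all have means of 436 or more, but changes within their intervals, about 0.13 to 0.23 to either side on the log2 scale, were not detectable.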

Other observations

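In a list of genes for mitochondrial biogenesis and content, which holds regulators of mitochondrial DNA and RNA together with membrane, import and protease genes, 5 of 19 tested were higher and 5 lower, with a median log2 fold change of −0.03. Of all tested genes 21.3% were higher and 23.2% lower. PPARGC1B and PPRC1, coactivators of the PGC-1 family, rose by log2 fold changes of 0.70 and 0.62 (the authors' deposited table, with adjusted p = 3.18e-06 and 8.67e-10). ESRRA, the oestrogen-related receptor that works with these coactivators on mitochondrial genes, rose by 0.60 (the authors' deposited table, with adjusted p = 2.68e-06). C10orf2, the older symbol of the mitochondrial DNA helicase gene TWNK, rose by 0.66 (the authors' deposited table, with adjusted p = 9.43e-10). Those called lower, and picked for naming once their values were known, were TFB1M, GABPB1, GABPA, NRF1 and TFAM, at −0.55, −0.44, −0.34, −0.30 and −0.23 in the authors' deposited table. The fifth that rose, also named after its value was seen, was TFB2M, at 0.59 in the authors' deposited table. The membrane and import genes VDAC1, VDAC2, VDAC3, TOMM20 and TIMM23, often read as signs of mitochondrial content and also named after their values were seen, were not called and lay between −0.16 and 0.19 in the authors' deposited table.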
